A study of Mus musculus with 6 samples.

Results

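The mitochondrial ribosomal protein genes were taken as the protein-coding genes of the deposited count table whose names begin with Mrpl or Mrps followed by a digit, with pseudogene names left out. The rule found 78 genes among 54532, of which 49 carry Mrpl names and 29 carry Mrps names. By the place of their proteins 51 belong to the large subunit, 26 to the small subunit and 1, Mrps36, to neither. The rule reads only the name and type of a gene. RNA-seq had been run on total RNA of freshly isolated bone marrow cells from the femurs of wild-type mice. In 3 libraries the mice had no treatment (control 1 to 3), and in 3 they had been kept under hindlimb unloading for 4 weeks (unloaded 1 to 3), a model of disuse osteoporosis in which the hind limbs bear no weight. The labels used here state neither sex, age nor strain. They do not say whether replicates came from separate animals, so p-values measure only the spread between these samples, which may be technical.

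Mitochondria carry their own ribosome, which translates the few mRNAs encoded by mitochondrial DNA, all of them for subunits of the respiratory chain and the ATP synthase. Its ribosomal RNAs come from mitochondrial DNA, while every protein of it is encoded in the nucleus, made in the cytosol and imported. Some of these proteins have counterparts in bacterial ribosomes and others exist only in mitochondria. Marrow holds dividing erythroid and myeloid precursors, which make new mitochondria, beside mature neutrophils, which hold few.

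The libraries held 15850986 to 17775506 counts, so the limit for an undetected gene, 3 counts, stood for 0.169 to 0.189 CPM, the count scaled to a common library total. This limit was taken over the raw totals, without the scaling factors used for the other CPM values. Marrow markers were abundant: 9 neutrophil markers summed to 46080 to 57065 CPM and 8 erythroid markers to 3834 to 6181 CPM. Of 6 skeletal muscle markers, Myh4 and Myh1 were at 0 and the list summed to 5.18 to 8.73 CPM. Of 6 osteoblast and osteocyte markers, the osteocyte gene Sost was at 0 counts in all libraries. That list still summed to 25.4 to 127 CPM, mostly from Col1a1 at 20.5 to 120 CPM. Fold changes were positive for 1 of 9 neutrophil, 6 of 8 erythroid, 0 of 8 B cell, 6 of 6 T cell, 2 of 5 monocyte, 0 of 5 progenitor, 0 of 4 megakaryocyte and 0 of 3 tested osteoblast and osteocyte markers, with 0 called by edgeR. DESeq2 called 4 of these markers, erythroid Hbb-bs (higher), monocyte Cx3cr1, B cell Vpreb3 and megakaryocyte Ppbp (lower), and limma-voom with library weights called Cx3cr1. Without the low-count filter edgeR called the same 4 and also Rag1, Col1a1 (lower) and Cd8b1 (higher). The part of cell composition in the results was not tested. Unloaded 1 stood apart from the other 5 libraries, with an SD of log2 deviations from the gene means of 0.356 over all genes tested against 0.227 to 0.248. In whole marrow, fewer cells of a type and less RNA per cell cannot be told apart.

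No mitochondrial ribosomal protein gene passed the test between unloaded and control marrow. Of the 78, 77 passed the low-count filter and were tested, and 0 were called by edgeR's quasi-likelihood test at an adjusted p under 0.05, where 0.0% of the 15015 genes tested were called. The smallest adjusted p among them was 0.825. At an unadjusted p under 0.05 there were 2, Mrpl38 and Mrps16, both higher after unloading. That is 2.6% of the 77 against 5.85% of all genes (2.67% higher and 3.18% lower). The 77 also had 0 calls in every other fit tried, where the share of all genes called was 0.302% with DESeq2, 0.56% with DESeq2 without unloaded 1, 0.0533% with limma-voom and library weights, 0.671% without the low-count filter, 0.0324% with edgeR without unloaded 1, 0.00666% with the replicate number as a block and 0.0% in the remaining fits.

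The estimates were narrow enough to bound most genes. For 72 of the 77 (93.5%) the 95% interval of the fold change lay inside 1.5-fold in both directions, and for all 77 it lay inside 2-fold. Over all genes tested the first share was 55.4%, and over the 7744 genes within the same range of mean CPM it was 68.4%. That range ran from 4.08 to 75.3 CPM, with a median of 27.4 over the 77. The genes in it were not matched in level, so the difference may reflect abundance. The intervals that crossed 1.5-fold belonged to Mrps6, Mrpl16, Mrps25, Mrpl47 and Mrps36. The SD between replicates, on the scale of log2(CPM + 0.5), had a median of 0.151 over the 77 and of 0.181 over the genes of the same CPM range.

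Fold changes on the log2 scale ran from -0.26 for Mrpl21 to 0.32 for Mrps6, with a median of 0.06 against 0.01 over all genes tested. They were positive for 48 of the 77 (62.3%) and negative for 29, where 51.2% of all genes were positive. In size, 40 were under 0.1 and 67 under 0.2. The median moved with single libraries: without control 1 the median was 0.017 with 41 genes positive, without unloaded 3 it was 0.014 with 40 positive, and without control 2 it was 0.109 with 57 positive.

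**Figure D1:**
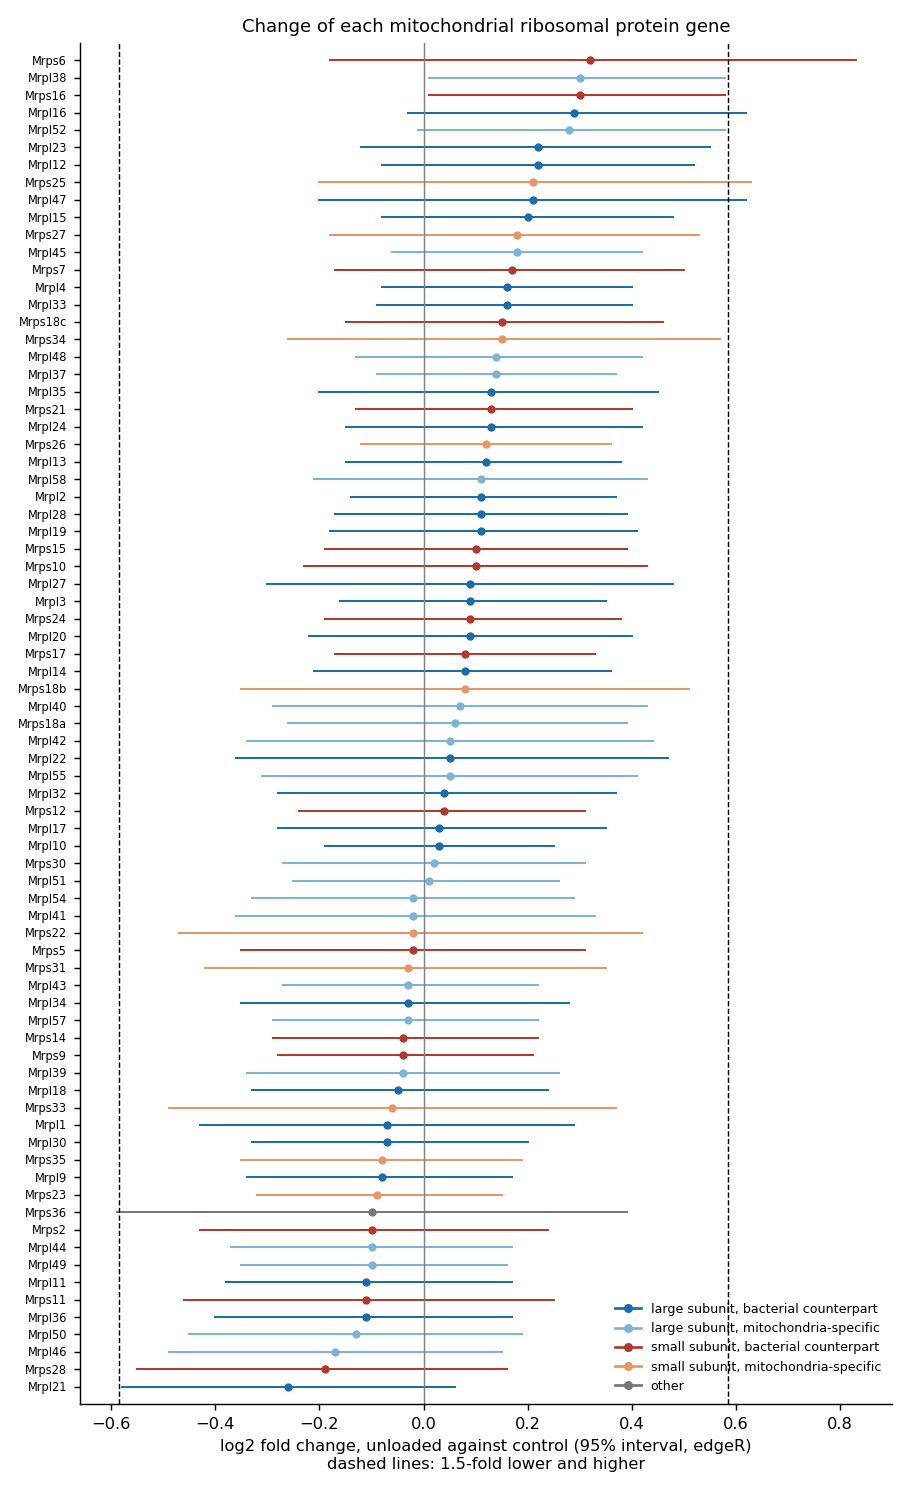
Log2 fold change of each of the 77 tested genes in unloaded against control marrow (points, horizontal axis) with its 95% interval from edgeR (lines), coloured by place in the ribosome; dashed lines mark 1.5-fold. All points lie between -0.26 and 0.32, and 72 of the 77 intervals stay between the dashed lines.

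Promoter sequences from RefSeq (build GRCm38.p6, 250 bases before to 50 after a start) were found for 69 of the 78 genes, 75 sequences in all. Motifs were searched on both strands. The motif of nuclear respiratory factor 1 (NRF1) was in 17.3% of them, against 9.66% of the promoters of tested protein-coding genes and 4.6% of all promoters. The ETS-type letters CCGGAAG were in 34.7% against 17.2% and 8.86%, and the YY1 motif in 6.67% against 1.96% and 0.852%. CACGTG, the E-box of MYC-type factors, was in 9.33% against 9.79% and 7.15%. These shares count promoters, and the same E-box of Mrpl2 was counted in several overlapping promoters. By gene CACGTG was in 5 of 69, against 1143 of 9820 tested protein-coding genes and 2187 of 27025 genes with a promoter. A match is a description of sequence only. The genes of these factors were tested too. Nrf1 had a log2 fold change of 0.09 ± 0.11, Gabpa, an ETS factor, -0.24 ± 0.18, Yy1 -0.08 ± 0.10 and Myc -0.05 ± 0.15 (SE). Gabpa and Myc were lowest in unloaded 1, at 49.9 and 63.2 CPM against 80.4 to 92.0 and 81.3 to 95.9 CPM elsewhere. Nrf1 was highest there, at 84.7 against 68.6 to 70.7 CPM. None was called among 8 tested regulators of mitochondrial gene expression, 2 positive and 6 negative.

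Stretches before the start of 3 genes show the NRF1 motif, with the match in capitals. They were the ones whose stretch touched no annotated exon. Mrpl12 is the stalk protein and Mrpl45 the protein at the tunnel exit, both described below, and Mrpl17 encodes a large-subunit protein with a bacterial counterpart (26.8, 32.2 and 31.2 CPM in controls, 25.3, 32.8 and 34.2 CPM after unloading). Read 5′ to 3′ on the strand of each gene they are
Mrpl12 (chr11:120484536-120484585, plus strand): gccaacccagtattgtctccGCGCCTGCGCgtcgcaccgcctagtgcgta
Mrpl45 (chr11:97315658-97315707, plus strand): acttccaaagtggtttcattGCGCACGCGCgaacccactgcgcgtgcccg
Mrpl17 (chr7:105811107-105811156, minus strand): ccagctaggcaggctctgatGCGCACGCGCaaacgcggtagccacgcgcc
The match shown begins 81 bases before the start in Mrpl12, 38 in Mrpl45 and 49 in Mrpl17, and in Mrpl12 it lies on the opposite strand. The Mrpl45 promoter holds 3 matches in all, the others beginning 120 bases before and 16 after the start. The 3 genes had log2 fold changes of 0.22, 0.18 and 0.03, and none was called.

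Levels were compared between genes per length, as CPM divided by the deposited gene length in kilobases (RPKM), averaged over 6 libraries. The 77 genes ran from 2.22 to 54.9 RPKM with a median of 10.6, and 54 of them lay above 6.66 RPKM, the median of all tested protein-coding genes. Cytosolic ribosomal protein genes had a median of 200 RPKM. The order of the genes was nearly the same in every library, with a Spearman correlation over the 77 genes of 0.962 to 0.992 in the 15 pairs of libraries. Genes are not independent replicates, and the libraries share the gene lengths.

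Mrpl34, the counterpart of a small bacterial large-subunit protein, had the highest level per length, at 55.6 ± 9.26 RPKM in controls and 54.2 ± 5.02 after unloading (SD, n = 3). Both of its means lay above those of every other member. Mrps21 followed at 35.9 ± 3.4 and 39.4 ± 0.979 RPKM, then Mrpl28 at 35.3 ± 2.69 and 38.1 ± 5.26 and Mrpl43 at 36.7 ± 3.13 and 36.0 ± 1.21. Mrpl18, which belongs to the part of the large subunit that binds its structural RNA, was at 30.8 ± 3.22 and 29.9 ± 3.58 RPKM. Mrps21, Mrpl28 and Mrpl43 did not differ from one another beyond their spread.

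At the low end were Mrps25 (2.06 ± 0.187 RPKM in controls, 2.39 ± 0.585 after unloading), Mrpl47 (2.33 ± 0.247 and 2.69 ± 0.520), Mrps10 (2.46 ± 0.192 and 2.63 ± 0.434), Mrps35 (2.66 ± 0.145 and 2.51 ± 0.103) and Mrps6 (2.36 ± 0.0733 and 2.96 ± 0.400; SD, n = 3). Neighbours in this order had 6-library means (2.22, 2.51, 2.54, 2.59 and 2.66 RPKM) that differed by less than the larger SD of the pair. A deposited length covers all annotated exons of a gene, so a gene with a long rarely used exon has a low RPKM. Mrps25 had a length of 6576 bases against 739 for Mrps21.

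The large-subunit proteins with a bacterial counterpart numbered 29, all tested, with 0 called, 21 positive and 8 negative fold changes and a median of 0.09. Mrpl12, the stalk protein that recruits translation factors and is also known to bind the mitochondrial RNA polymerase, was at 26.7, 34.8 and 30.1 CPM in controls 1 to 3 and at 37.7, 31.2 and 37.7 CPM in unloaded 1 to 3. Its groups overlapped through control 2, and the log2 fold change was 0.22 ± 0.14 (SE; edgeR adjusted p = 0.896). Mrpl16, whose bacterial counterpart lies near the tRNA sites, was at 18.2, 21.2 and 17.0 CPM against 26.2, 20.3 and 22.7 CPM. Unloaded 1 was the highest value and control 2 lay above unloaded 2, with a log2 fold change of 0.29 ± 0.15, and 0.19 when unloaded 1 was left out.

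Mrpl21 had the most negative estimate of all. It was at 22.0, 23.1 and 18.4 CPM in controls and at 17.7, 19.4 and 15.9 CPM after unloading, overlapping through control 3, with a log2 fold change of -0.26 ± 0.15 (SE; edgeR adjusted p = 0.885). Mrpl3, whose bacterial counterpart reaches toward the peptidyl transferase centre, gave 0.09 ± 0.12. Mrpl36, at 29.6, 31.4 and 31.2 CPM against 24.4, 28.7 and 32.0 CPM, gave -0.11 ± 0.13. Mrpl33 had the highest CPM of the family, with 62.7, 73.8 and 77.1 in controls and 80.6, 76.4 and 81.0 after unloading, where control 3 exceeded unloaded 2.

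Of the 22 large-subunit proteins without a bacterial counterpart 21 were tested, with 0 called, 12 positive, 9 negative and a median of 0.02. Mrps30 and Mrps18a carry Mrps names but encode proteins that sit in the large subunit. Both were counted in this group, although Mrps18a is named for bacterial S18. Their log2 fold changes were 0.02 ± 0.13 and 0.06 ± 0.15. Mrpl44, which has a fold of the RNase III family, gave -0.10 ± 0.12. Mrpl58, a peptidyl-tRNA hydrolase known for releasing stalled chains, gave 0.11 ± 0.14, and Mrpl41 gave -0.02 ± 0.16. The more negative members were Mrpl46, at 15.3, 19.5 and 17.7 CPM against 15.3, 16.3 and 15.1 CPM (-0.17 ± 0.14), and Mrpl50 (-0.13 ± 0.14), and both overlapped between groups.

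Mrpl53 was the member that could not be tested, with 0 counts in all 6 libraries. Its gene on chromosome 6 spans a model of 790 exonic bases, and in GENCODE M21 88.0% of them are shared with exons of Gm42688 on the same strand or Ccdc142os on the opposite strand. How the authors treated reads that fall on several genes is not given in the sources used here, and the part of this overlap in the 0 was not tested. The next highest shares of bases that overlap other genes were 77.8% for Mrps34 and 69.8% for Mrps25. Those shares limit how surely their counts can be assigned.

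The small subunit showed the same narrow range. Its 16 proteins with a bacterial counterpart had 10 positive and 6 negative fold changes, 0 called and a median of 0.09, and its 10 mitochondria-specific proteins had 5 and 5, 0 called and a median of 0.03. Mrps12, the counterpart of the bacterial protein at the decoding site, was at 20.8, 22.8 and 23.5 CPM in controls and 24.8, 21.6 and 22.5 CPM after unloading, a log2 fold change of 0.04 ± 0.13 (SE). The groups were interleaved. Mrps5 gave -0.02 ± 0.15, Mrps2 -0.10 ± 0.15 and Mrps7, an RNA-binding protein of the subunit's head, 0.17 ± 0.15. For Mrps7 the value in unloaded 1 was 45.1 CPM, above the 29.4 to 37.4 CPM of the other 5 libraries.

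Mrps28 had the most negative estimate of the small subunit, at 15.4, 20.1 and 19.6 CPM in controls and 14.0, 16.5 and 17.6 CPM after unloading (log2 -0.19 ± 0.16, SE). Control 1 lay inside the range of the unloaded values. Mrps27, a protein with pentatricopeptide repeats, gave 0.18 ± 0.16. Of the 3 genes named for bacterial S18, Mrps18a, Mrps18b and Mrps18c, the log2 fold changes were 0.06, 0.08 and 0.15. Only Mrps18c was counted among the proteins with a bacterial counterpart. Mrps36 has a ribosomal name, but its product is known as a subunit of the 2-oxoglutarate dehydrogenase complex. It stood at 11.8, 12.1 and 11.2 CPM against 7.20, 12.2 and 13.4 CPM, with unloaded 1 lowest, and the estimate of -0.10 ± 0.22 became 0.13 when that library was left out.

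In 10 of the 77 genes (13%; 11.9% of all genes did not overlap in either direction) all 3 unloaded values lay above all 3 control values, where 5.46% of all genes tested did so. The opposite held for 1 gene (1.3%), where 6.4% of all genes did so. None of these 11 passed edgeR's test. Mrpl38, a large-subunit protein found only in mitochondria, had the smallest p. This gene (ENSMUSG00000020775, mm10 chromosome 11, 116131817 to 116138868, minus strand) was at 25.6, 23.6 and 24.5 CPM in controls and 34.3, 29.6 and 26.7 CPM after unloading. The log2 fold change was 0.30 ± 0.13 (SE), with an unadjusted p of 0.0424 and an adjusted p of 0.825 by edgeR, and it was 0.20 without unloaded 1, the highest library.

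Mrps16 (ENSMUSG00000049960, mm10 chromosome 14, 20389304 to 20393634, minus strand), a core small-subunit protein, was at 21.5, 27.2 and 23.5 CPM in controls and 30.5, 27.7 and 30.4 CPM after unloading. Its groups were separated by the gap between control 2 and unloaded 2 alone. The log2 fold change was 0.30 ± 0.13 (SE; edgeR adjusted p = 0.836), and it ran from 0.22 to 0.39 with single libraries left out. Mrpl52 was at 18.9, 23.3 and 22.7 against 27.7, 24.0 and 27.3 CPM (0.28 ± 0.13). Mrpl45, which lies at the exit of the peptide tunnel facing the inner membrane, was at 30.0, 28.4 and 29.1 against 33.6, 31.6 and 33.7 CPM (0.18 ± 0.11).

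The other 6 higher genes of this kind had larger p-values. Mrpl4, which lines the peptide tunnel, was at 48.2, 50.3 and 47.5 CPM in controls against 60.5, 52.5 and 50.4 CPM, and its lowest unloaded value was 50.4 beside a highest control value of 50.3. Mrpl15 was at 27.9, 31.5 and 29.4 against 31.5, 31.9 and 38.6 CPM, so that its groups met at 31.5. Mrps6 had the lowest CPM of the tested members, with 3.72, 3.50 and 3.64 against 4.91, 3.83 and 4.88 CPM. Mrpl37, Mrps26 and Mrps18c had log2 fold changes of 0.14, 0.12 and 0.15. In the lower direction, Mrpl11, of the region where translation factors bind, was at 19.6, 20.4 and 18.7 against 18.0, 18.6 and 18.1 CPM (-0.11 ± 0.13). Its highest unloaded value, 18.6, lay just under its lowest control value, 18.7.

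**Figure D2:**
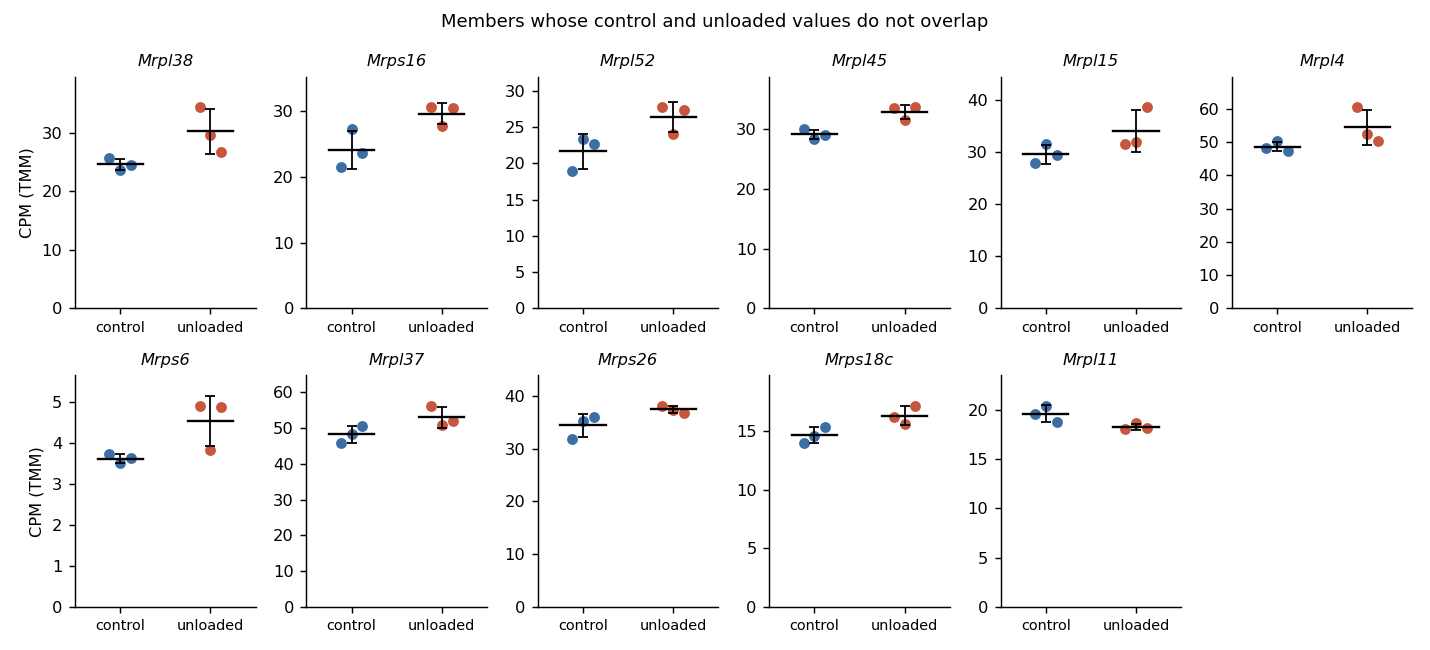
CPM scaled by TMM (vertical axes, from 0) of the 11 genes whose control (blue) and unloaded (red) values do not overlap; each point is a library, bars are the mean ± SD of 3. In Mrpl38 the unloaded values run from 26.7 to 34.3 above controls of 23.6 to 25.6, and in Mrpl11 the order is the opposite.

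Summed over the 78 genes, the family took 0.194%, 0.219% and 0.214% of the counts of controls 1 to 3 and 0.216%, 0.217% and 0.224% of unloaded 1 to 3. The means were 0.209% ± 0.0131 and 0.219% ± 0.00472 (SD, n = 3). Control 1 was the lowest library, control 3 lay just under the lowest unloaded one, and control 2 lay among the unloaded ones. Without control 1 the difference of means was 0.00254 percentage points in place of 0.00991. The ratio of summed counts of the large to the small subunit stayed between 2.27 and 2.37 in the 6 libraries.

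The 77 genes leaned to the same side of their means most strongly in control 1, control 2 and unloaded 3. In control 1 the median of the 77 genes was -0.103 (log2) from the gene means and 10 of 77 lay above their mean, while in control 2 the median was 0.0817 with 52 above. Unloaded 3 was the highest, with a median of 0.0829 and 60 above. In control 3 and unloaded 2 the medians were -0.0312 and -0.0172, with 32 and 33 genes above. Unloaded 1 had a median of -0.00309 with 38 above, and its genes were spread more widely, with an SD of 0.215 over the 77 against 0.0897 to 0.126 in the others. It held the highest value of 23 genes and the lowest of 24.

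**Figure D3:**
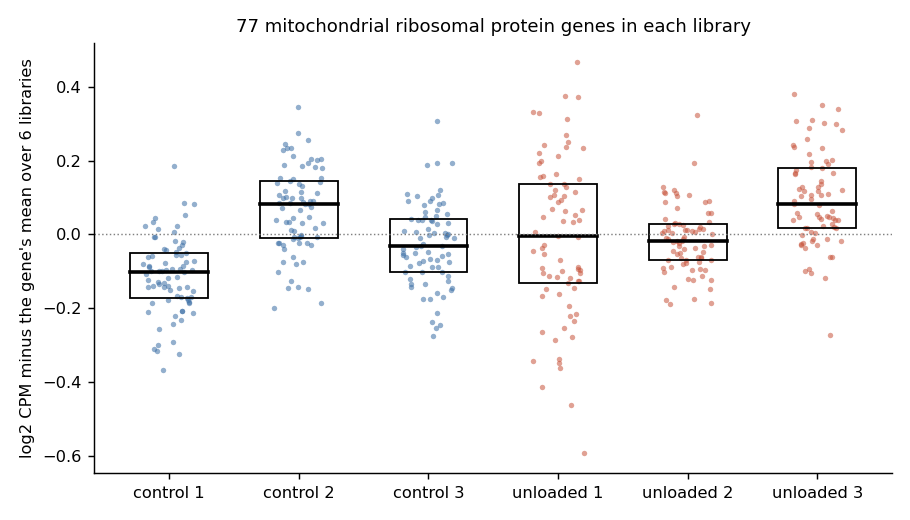
Each point is 1 of the 77 tested genes, plotted as log2(CPM + 0.5) minus its own mean over 6 libraries (vertical axis), for each library (horizontal axis); boxes span the middle quartiles and thick lines are medians. Control 1 lies low with a median of -0.103, unloaded 3 high with 0.0829, and the points of unloaded 1 are the most spread.

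The values of unloaded 1 were in part related to the base composition of the transcripts. Over the 77 genes, whose transcripts had 38.6% to 60.4% GC, the deviation of unloaded 1 from the mean of the other 5 libraries had a Pearson correlation of 0.381 with GC, given as a description. In the other libraries this value was -0.286 to 0.184. Over all genes tested it was 0.307 in unloaded 1. The 38 genes richer in GC had a median deviation of 0.126 in that library and the 39 poorer ones -0.119. Mrps25 (0.56), Mrpl23 (0.45) and Mrps7 (0.45) were highest there, and Mrps36 (-0.71), Mrps22 (-0.55) and Mrpl42 (-0.50) lowest. Single genes departed from this relation: Mrps25 (45.1% GC) and Mrpl16 (0.40, 43.6% GC) were high at low GC, and Mrps28 (-0.34, 54.4% GC) was low at high GC. The part of GC content in these deviations was not tested gene by gene. With each library's GC trend removed the median fold change of the family was 0.068, with 50 of 77 positive and 0 called.

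**Figure D4:**
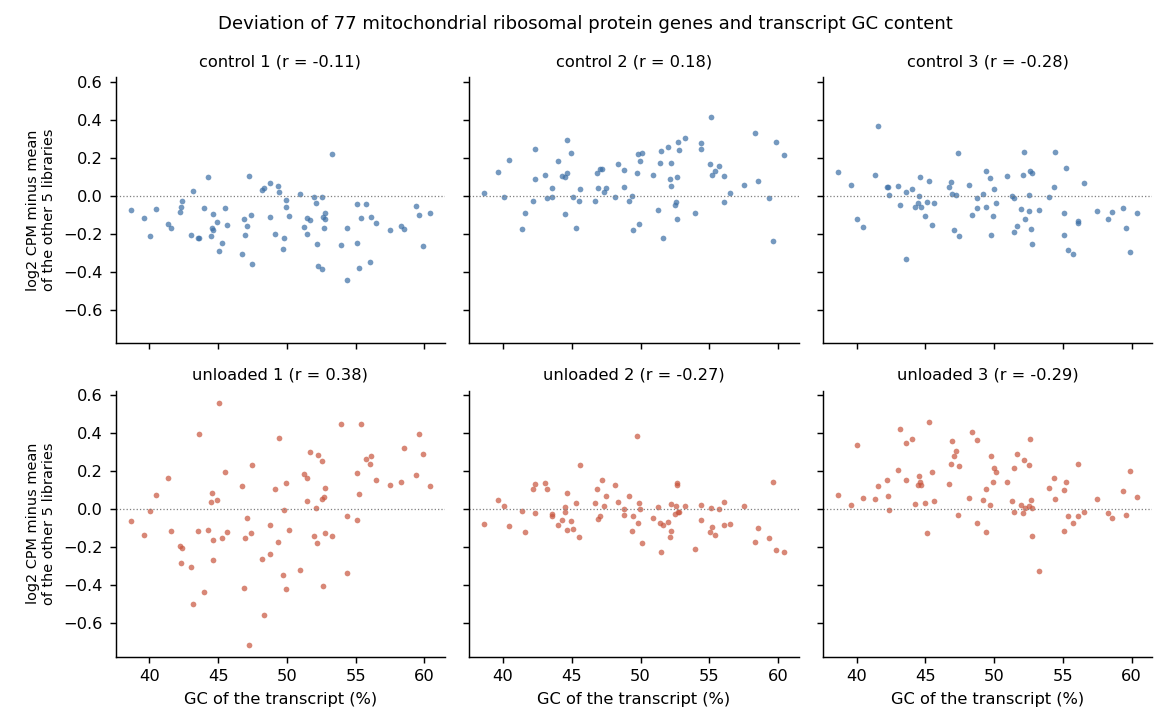
Deviation of each library from the mean of the other 5 on the log2(CPM + 0.5) scale (vertical axes) against GC content of the gene's longest transcript (horizontal axes), for the 77 tested genes. In unloaded 1 genes richer in GC tend to lie higher (r = 0.381), and in the other 5 libraries r lies between -0.286 and 0.184.

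The ribosomal RNAs of the mitochondrial ribosome and the mRNAs it translates were read beside the genes of its proteins. The ribosomal RNAs mt-Rnr1 and mt-Rnr2 together took 0.0734%, 0.0623% and 0.0632% of counts in controls and 0.0541%, 0.0583% and 0.0714% in unloaded libraries, with overlapping groups (exact permutation p = 0.4, two-sided, n = 3 per group, where 0.1 is the smallest possible). Their log2 fold changes were -0.13 ± 0.13 and -0.12 ± 0.14 (SE). Per length both had a mean of 263 RPKM in controls, and 239 and 242 RPKM after unloading. The mRNA mt-Co1 had means of 3660 and 2858 RPKM. The part of library preparation in these levels was not tested, so the counts may not measure the amount of ribosomal RNA in the cells. Mitochondrially encoded mRNAs made up 0.384% of counts in unloaded 1 and 0.981% to 1.21% in the other 5 libraries. The counts of these mRNAs were 1.78 times those of the ribosomal protein genes in unloaded 1 and 4.42 to 5.65 times in the others, so in that library the mRNAs were low while the family as a whole kept its share of 0.216%.

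Of the 13 mitochondrially encoded mRNAs 12 were tested, with 0 called by edgeR, 9 negative and a median log2 fold change of -0.43 that was -0.083 without unloaded 1. Without the low-count filter edgeR called 5 of them, mt-Nd5, mt-Nd2, mt-Cytb, mt-Nd1 and mt-Nd4, all lower. The smallest p belonged to mt-Nd4l, a complex I subunit, at 1.77, 6.27 and 3.82 CPM in controls and 0.765, 2.42 and 2.41 CPM in unloaded libraries (-1.07 ± 0.49; edgeR adjusted p = 0.848). Next was mt-Nd6, also of complex I, at 236, 253 and 330 against 139, 250 and 242 CPM. In both, unloaded 1 was the lowest library. The positive ones included mt-Co3, of complex IV (0.14 ± 0.22), and mt-Nd3, of complex I (0.11 ± 0.27). Levels per length differed widely among these mRNAs. In controls and after unloading the means were 29.1 and 32.0 RPKM for mt-Co3 and 10.6 and 11.4 for mt-Nd3. For mt-Nd4l they were 13.3 and 6.27 RPKM, and for mt-Cytb 1344 and 942. How multiply aligned reads were handled was not given, and its part in these levels was not tested.

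**Figure D5:**
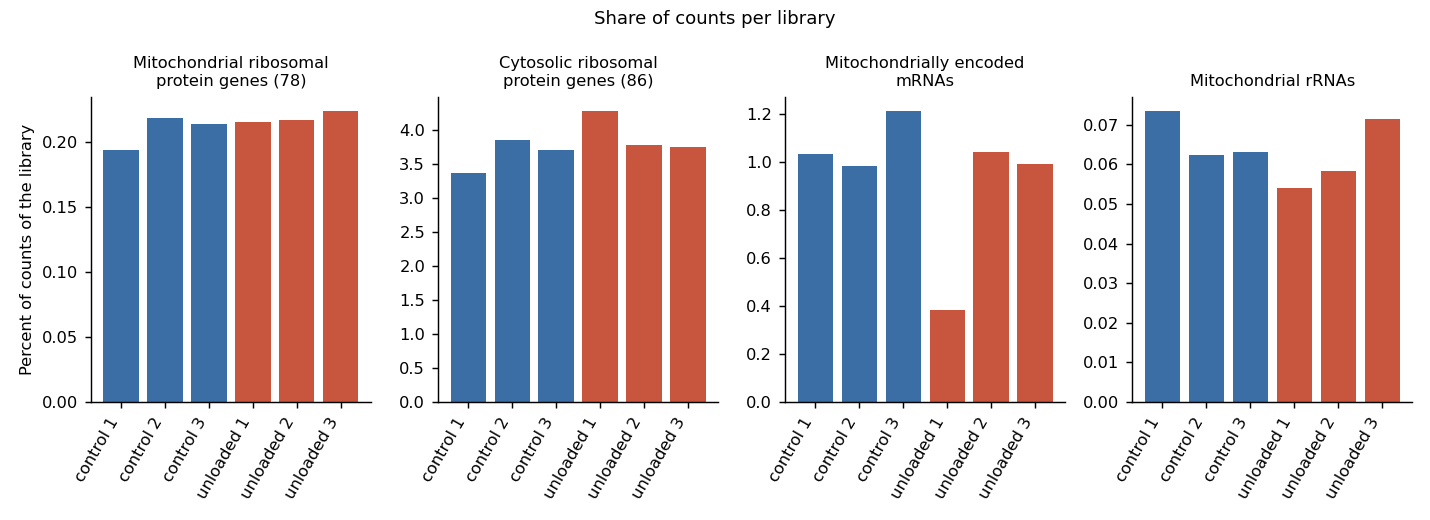
Percent of all counts of each library (vertical axes, from 0) taken by the 78 mitochondrial ribosomal protein genes, 86 cytosolic ribosomal protein genes, mitochondrially encoded mRNAs and mitochondrial rRNAs, in control (blue) and unloaded (red) libraries. The first panel spans 0.194% to 0.224%, while mitochondrially encoded mRNAs are at 0.384% in unloaded 1 and at 0.981% or more elsewhere.

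None of the other nuclear genes of mitochondrial translation was called by edgeR. The 5 ribosomal proteins with other names had 4 positive and 1 negative fold changes, led by Gadd45gip1 at 19.7, 22.0 and 22.4 CPM in controls and 28.2, 23.0 and 27.5 CPM after unloading (0.29 ± 0.13; edgeR adjusted p = 0.847). Of 14 translation factors 8 were positive and 6 negative, with a median of 0.04. Guf1, a back-translocating GTPase, was at 20.1, 25.9 and 25.7 against 23.8, 33.6 and 35.0 CPM (0.37 ± 0.17), and Tufm, the elongation factor that brings tRNAs, gave 0.20 ± 0.13. A list of 20 genes held mitochondrial aminoacyl-tRNA synthetases together with the amidotransferase subunits Gatb, Gatc and Qrsl1, which are not synthetases. Of these 20, 15 were positive, with a median of 0.11, among them Cars2 (0.29 ± 0.14) and Tars2 (0.26 ± 0.12). The leucyl enzyme Lars2 was the most negative at -0.30 ± 0.16. All 27 assembly factors found in the table were tested, 22 positive and 5 negative with a median of 0.09. They included Mrm1 (0.33 ± 0.13) and Mrm2 (0.45 ± 0.19), both methyltransferases of the large ribosomal RNA, which did not overlap between groups and were higher after unloading. Rpusd4, a pseudouridine synthase, did not overlap in the lower direction, at 18.0, 21.5 and 21.3 against 17.7, 17.7 and 17.9 CPM (-0.19 ± 0.13), where 5.46% of all genes did not overlap higher and 6.4% lower. The most negative was the rRNA methyltransferase Mettl15 (-0.47 ± 0.46), at 0.765 CPM in unloaded 1 and 3.09 to 4.65 CPM elsewhere. In the list of mitochondrial transcription and mRNA stability 8 of 9 genes were tested, 4 in each direction.

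The cytosolic ribosomal protein genes were 76 of 84 positive with a median of 0.10, 0 called, and a median of 0.034 without unloaded 1. Their share of counts was 3.37%, 3.85% and 3.70% in controls and 4.27%, 3.78% and 3.75% in unloaded libraries, highest in unloaded 1. The mitochondrial family did not share that high value. Genes of the cell cycle, which dividing precursors express, summed to 4150 to 4476 CPM in controls and 3985 to 4510 CPM after unloading, and 14 of 14 were tested with 0 called and a median of -0.04.

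The genes lie on 17 chromosomes, with at most 11 on 1 of them (chromosome 11), so most are not neighbours. A shared arrangement was a start next to that of a gene on the opposite strand: 19 of the 78 (24.4%) had the start of another protein-coding gene within 1000 bases upstream, against 6.82% of all protein-coding genes and 10.4% of those tested. The starts were 26 to 935 bases apart, with a median of 100. The 19 partners were all tested, with 0 called, 11 positive and log2 fold changes from -0.20 to 0.30. Among them was Twnk, the mitochondrial DNA helicase, beside Mrpl43 (partner 0.21, member -0.03). In the deposited coordinates these starts lie 116 bases apart and point away from each other, so the models do not overlap. In GENCODE M21 the Mrpl43 model is longer, with 1520 exonic bases against 1213 deposited, and 33.4% of them are shared with Twnk. Another partner was Sars2, a mitochondrial seryl-tRNA synthetase, beside Mrps12 (partner 0.05, member 0.04).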

How the data were processed

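RNA-seq libraries of femoral bone marrow from 3 control and 3 unloaded samples were grouped by their titles. The authors deposited raw read counts per gene, without normalization. Per the submitters' processing notes the tools were CASAVA, HISAT2 2.0.5 and featureCounts 1.5.0-p3, with build mm10. Annotation release, strand setting and handling of multiply aligned reads were not given in the sources used here. The file also lists gene lengths, used as deposited.

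The whole table was filtered with filterByExpr (15015 genes kept), scaled with TMM and fitted with edgeR 4.0.16 (glmQLFit, glmQLFTest; R 4.3.3), with Benjamini-Hochberg adjustment over all genes tested and a threshold of 0.05. Each standard error was taken as the absolute log2 fold change over the root of F, and intervals are 95% with the moderated degrees of freedom. CPM use TMM-scaled totals, except the limit for an undetected gene, which uses raw totals. Limits for a gene at 0 cover counting error only. The fits were tested on simulated data. Every pair of libraries differed beyond counting noise, with a chi-square per degree of freedom of at least 6.64.

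Members, gene lists and roles were chosen with earlier results of these data known. Genes were named as the 5 members of smallest p per direction, the 5 most and least abundant per length, 16 fixed by role, those whose groups did not overlap, and up to 2 per direction from each list of mitochondrial genes. Marker lists are given as sums or counts. Others were named after their values were seen: Mrpl33, Mrpl23, Mrps22, Mrpl42, Mrpl53, Mrps34, Mrpl17, the partners Twnk and Sars2, the factors with motifs, and the markers and mitochondrially encoded mRNAs called by another fit.

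Alternatives changed the scaling (RLE, upper quartile), the tool (DESeq2 1.42.0, or limma-voom from limma 3.58.1, also with library weights), the genes (no filter, a minimum of 1 CPM in 3 libraries, protein-coding only, hemoglobin and the 20 most counted genes removed) and the samples (each library left out, replicate block). Removal of the GC trend, and DESeq2 with unloaded 1 left out, were chosen after seeing the data. Gene models come from GENCODE M21, whose coordinates matched those deposited for 73 of 78 members.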

Additional observations from a re-analysis of the deposited data

How the results depend on the processing

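No member was called under any of the 18 alternatives, and 0 to 4 had an unadjusted p under 0.05. The median log2 fold change ran from 0.014 to 0.109 and 40 to 57 of 77 were positive with single libraries left out. The other settings gave medians of 0.038 to 0.079 with 47 to 53 positive. The difference in summed share ran from 0.00254 to 0.015 percentage points with single libraries left out. The share of mitochondrially encoded transcripts differed by -0.273 points, by -0.0583 without unloaded 1, and by -0.389 to -0.0583 over all omissions. Over all genes edgeR called 0, DESeq2 40 (73 without unloaded 1), limma-voom with library weights 8, edgeR without a filter 183, and 0 to 5 with single libraries left out (5 without unloaded 1). Among the context genes DESeq2 called 4 (4 without unloaded 1), limma-voom with weights 1 and no filter 12, 5 of them mitochondrially encoded mRNAs. The cause of these differences was not tested. Whether the replicate number pairs the libraries is not stated. Same-numbered deviations correlated at 0.0309, -0.0633 and 0.0185, and differently numbered ones at -0.088 to 0.0939. Controls 1 and 2 correlated best with unloaded 1, and control 3 with unloaded 2. With 3 libraries per group such small values cannot decide the question. With the replicate block 1 gene and no member was called (median 0.063).

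Of 720 values of the 40 named members, 32 had the sign opposite to the full fit, in 14 members with full-fit values of at most 0.21 in size. With weights these were Mrpl41 0.01, Mrps12 -0.02, Mrps30 -0.01, Mrps36 0.06 and Mrps5 0.07. DESeq2 without unloaded 1 gave Mrpl28 -0.01, Mrpl41 0.05, Mrps12 -0.02, Mrps2 0.04, Mrps25 -0.01, Mrps36 0.13 and Mrps5 0.12. With single libraries left out the ranges that crossed 0 were Mrpl18 -0.15 to 0.04, Mrpl28 -0.01 to 0.17, Mrpl34 -0.11 to 0.11, Mrpl41 -0.14 to 0.08, Mrpl43 -0.08 to 0.04, Mrps10 -0.04 to 0.18, Mrps12 -0.02 to 0.07, Mrps18a -0.07 to 0.14, Mrps18b -0.07 to 0.25, Mrps2 -0.22 to 0.04, Mrps25 -0.01 to 0.31, Mrps30 -0.04 to 0.11, Mrps36 -0.27 to 0.13 and Mrps5 -0.14 to 0.13. Tested members held 58 to 1313 counts per library, and Mrps6, at the low end, had the widest interval.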

Other observations

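The count table also lists 5 processed pseudogenes of the family. Mrpl23-ps1 had 81, 44 and 52 counts in controls 1 to 3 and 28, 90 and 33 in unloaded 1 to 3, while its parent gene Mrpl23 was highest in unloaded 1 at 36.8 CPM. Mrpl48-ps had 7 to 18 counts per library, Mrps36-ps1 0 to 19, Mrps36-ps2 3 to 8 and Mrps36-ps3 0 in all. How reads matching both a copy and its parent gene were assigned was not analysed here.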
